A study of Homo sapiens with 16 samples.

Results

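MHC class I antigen presentation was described here through 9 genes, taken from the count table as the rows whose gene symbol was HLA-B, HLA-C, B2M, TAP1, TAP2, TAPBP, PSMB8, PSMB9 or ERAP1. All 9 names were found once each, out of 12676 genes in the table, and all 9 passed the filter of at least 10 reads in at least 2 libraries. They are taken by name as parts of the pathway, by a rule that uses no measured value, though earlier results of these data were known when the names were chosen. The table holds mRNA-seq reads per gene from H1299, a line from a human non-small cell lung carcinoma, with 2 libraries from cells given a non-targeting shRNA (shNT) and 2 libraries from cells given an shRNA against YEATS2 (shYEATS2). YEATS2 is a histone acetylation reader and a subunit of the ATAC histone acetyltransferase complex. All 4 libraries came from cells infected for 48 h with pLKO lentivirus made in 293T cells, with 8 μg/ml polybrene, and then selected with 2 μg/ml puromycin for 4 to 7 days by the labels (the study's methods give a shorter selection), so the controls carry the same vector and selection. The labels do not name the YEATS2 shRNA. The study's text names shY2-1, a single hairpin of the pair used in the study, for its RNA-seq in duplicate. It also reports RNA-seq with the other hairpin, and does not say which hairpin the libraries used here carry. They were taken as shY2-1 because they are duplicates, and on that reading they hold neither the other hairpin nor a rescue. Whether the libraries of a group came from separate infections is not stated in the labels, and p-values then measure the spread between these libraries only.

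The libraries held 34718921 to 39417787 reads in the table. YEATS2 itself had 4482 and 4104 scaled reads in shNT and 665 and 673 in shYEATS2, a log2 fold change of -2.68 (edgeR quasi-likelihood FDR = 0.000583). Scaled reads are read counts corrected for library size by TMM, the scaling of edgeR. Of 8 markers of a lung carcinoma line, KRT7, KRT8, KRT18, VIM and CDH2 were in the table, and EPCAM, CDH1 and KRT19 were not. Of 13 leukocyte markers only ITGAM was in the table, with 231 and 136 scaled reads in shNT and 426 and 507 in shYEATS2, while PTPRC and CD14 were not, and the part of ITGAM-bearing cells in the results was not tested. None of the 6 fibroblast or 6 endothelial markers was listed. Every listed gene had at least 101 reads in some library. An unlisted gene may have lain below that level, or may be missing for another reason, since the gene annotation used for counting is not given.

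Class I molecules show pieces of a cell's own proteins to CD8 T cells. Proteins are cut by the proteasome, whose catalytic subunits can be exchanged for the immunoproteasome subunits PSMB8, PSMB9 and PSMB10. The transporter TAP1-TAP2 carries the peptides into the endoplasmic reticulum, ERAP1 trims them there, and tapasin (TAPBP) holds an empty class I molecule at the transporter until a peptide is bound. The class I molecule is a heavy chain, such as HLA-B or HLA-C, joined to β2-microglobulin (B2M). Tumour cells often carry lowered or lost class I presentation, and interferons are the known inducers of nearly all of these genes, through IRF, STAT and NF-κB factors and the class I transactivator NLRC5.

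Promoter letters are shown first because the members share known control elements that the choice of the genes did not use. RefSeq promoter windows of build GRCh38.p14, from 250 bases before the annotated start to 50 bases after it, were found for all 9 genes, with more than 1 annotated start for some of them, and a motif was counted if any window of the gene held it. The stretches below lie upstream of the start and are written 5′ to 3′ on the strand of the gene. For the heavy chains, capitals mark the NF-κB motif, the IRF core AANNGAAA, the CRE-like word TGACGC and CCAAT, each read on either strand.
HLA-B, chr6:31357229-31357364, minus strand: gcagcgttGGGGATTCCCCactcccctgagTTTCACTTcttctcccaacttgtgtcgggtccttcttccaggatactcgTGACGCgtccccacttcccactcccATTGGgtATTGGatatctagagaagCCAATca
HLA-C, chr6:31272142-31272272, minus strand: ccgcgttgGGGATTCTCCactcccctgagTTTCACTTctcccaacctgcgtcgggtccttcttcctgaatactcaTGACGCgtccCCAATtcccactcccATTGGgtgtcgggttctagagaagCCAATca
These promoters belong to the heavy chain genes whose replicates spread most among the abundant members. For B2M, capitals mark the interferon-stimulated response element (ISRE) core, which is GAAA, any 2 bases (NN) and GAAA, the NF-κB motif and CCAAT.
B2M, chr15:44711367-44711481, plus strand: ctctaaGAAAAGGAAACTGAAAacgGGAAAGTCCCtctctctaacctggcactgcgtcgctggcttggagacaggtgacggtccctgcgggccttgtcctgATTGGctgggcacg
For TAP1, TAPBP and TAP2, capitals mark the ISRE core and, in TAP1 and TAPBP, the NF-κB motif. They are set side by side because the log2 fold changes of these loading complex genes differed in sign.
TAPBP, chr6:33314079-33314143, minus strand: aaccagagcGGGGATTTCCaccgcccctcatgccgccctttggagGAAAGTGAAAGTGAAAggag
TAP1, chr6:32853764-32853839, minus strand: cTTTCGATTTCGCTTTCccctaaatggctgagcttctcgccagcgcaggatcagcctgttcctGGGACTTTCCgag
TAP2, chr6:32838740-32838809, minus strand: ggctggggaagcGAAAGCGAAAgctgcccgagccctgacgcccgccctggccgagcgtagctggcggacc

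The ISRE core was present in the windows of 6 of the 9 genes, B2M, TAP1, TAP2, TAPBP, PSMB8 and ERAP1, against 4.38% of 27305 genes with a window. The NF-κB motif was present in HLA-B, HLA-C, B2M, TAP1, TAPBP and ERAP1, against 13.3% of all genes. The IRF core, which lies inside every ISRE core and so is no separate count, was in 8 of 9 members and in 26.7% of all genes, and PSMB9 was the member without it. CCAAT was in 6 members against 39.7% of genes, TGACGC in 3 (HLA-B, HLA-C and TAP2) against 10.9%, and the GAS word TTCNNNGAA in TAP1 and PSMB8 against 9.38%. These motifs were picked after the letters had been read, and a match is a description of the letters only. TAP1 and PSMB9 start 488 bases apart on opposite strands, and the ISRE core of TAP1 lies 354 to 369 bases before the PSMB9 start, outside the PSMB9 window. TAP2 and TAPBP both had the ISRE core, and their log2 fold changes were of opposite sign. Among 9430 tested protein-coding genes with a window, 12.5% were called higher and 13.1% lower in shYEATS2. Of the 340 of these with an ISRE core, 54 (15.9%) were called higher and 43 (12.6%) lower.

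**Figure D1:**
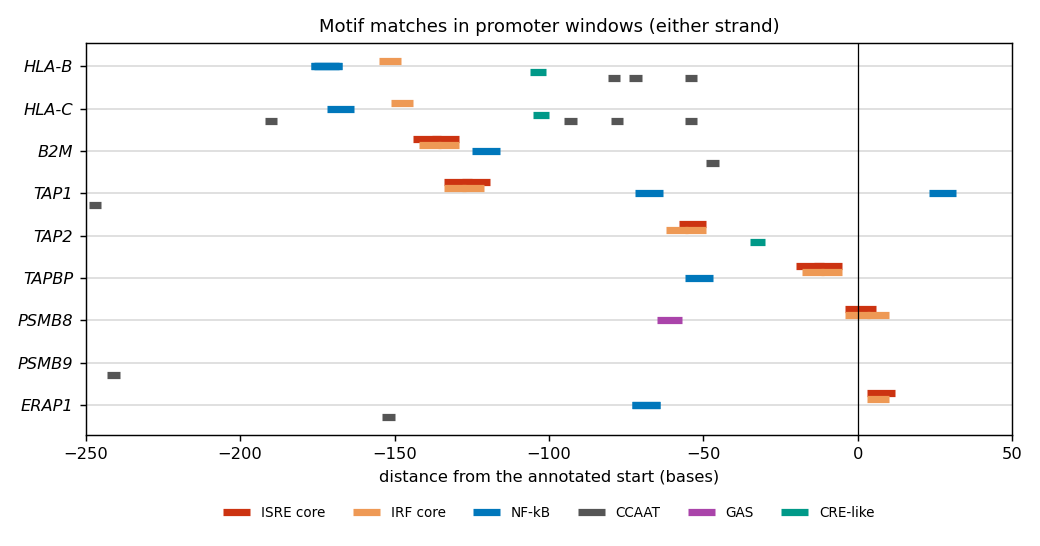
Positions of the motifs in the promoter windows of the 9 genes, in bases from the annotated start (0 on the horizontal axis), with each coloured bar a match on either strand. A single window is drawn for each gene, that of a further annotated start for PSMB8, so the GAS word of TAP1, which lies in the window of another TAP1 start, is not drawn. ISRE cores lie in 6 genes and NF-κB motifs in 6, while HLA-B and HLA-C carry the shorter IRF core and TGACGC.

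The amounts of the members differed widely in control cells. Per kilobase of the canonical transcript, B2M was the highest in shNT, at 9585 ± 76.6 scaled reads per kb (SD, n = 2, as in all such values). HLA-B followed with 2359 ± 126, HLA-C with 1556 ± 73.7 and TAPBP with 1062 ± 80.2 scaled reads per kb. TAP1 had 721 ± 78.3, ERAP1 596 ± 72.5, PSMB8 557 ± 2.89, TAP2 383 ± 40.3 and PSMB9 289 ± 33.2 scaled reads per kb. Along this order the ranges of the 2 shNT libraries overlapped between neighbours only for ERAP1 and PSMB8. In shYEATS2 the per-kilobase levels ran from 17783 ± 3008 for B2M down to 339 ± 135 for PSMB9 and 312 ± 10.2 for TAP2. There the ranges overlapped for HLA-B with HLA-C, for TAP1 with ERAP1 and for TAP2 with PSMB9. The reads could be split or lost among the near-identical and variable HLA genes, so the HLA-B and HLA-C levels are uncertain in a way the replicate spread does not show.

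The comparison of shYEATS2 with shNT asked whether YEATS2 knockdown changed these transcripts. B2M and TAPBP were higher after knockdown, by 1.86-fold and 1.67-fold, and the other 7 members did not pass the threshold of an FDR under 0.01 (edgeR quasi-likelihood FDR, which is the p of edgeR's quasi-likelihood test after Benjamini-Hochberg adjustment over all genes). These 2 of 9 genes stand beside 1630 of 12676 genes, or 12.9%, called higher in the whole table, and none of the 9 beside 1581 genes, or 12.5%, called lower. At an unadjusted p under 0.05, 5 members were higher and 1 lower, against 28.7% and 27.8% of all genes, and none was called lower by DESeq2, edgeR's exactTest or limma-trend. DESeq2 and exactTest called HLA-B and HLA-C higher as well, which made 4 of 9, against 17.0% and 20.5% of all genes called higher by these tests. The log2 fold change was above 0 in 8 of the 9 genes, with a median of 0.39 against -0.0019 over all genes. Leaving out shYEATS2 replicate 2 lowered the members' median to 0.23, and leaving out shYEATS2 replicate 1 raised it to 0.59. With scaling by total counts the median of all genes shifted by 0.12 and that of the members was 0.51, and TAP2 remained the only member below 0, at -0.17. In bulk RNA, more cells with a transcript and more of it per cell cannot be told apart.

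**Figure D2:**
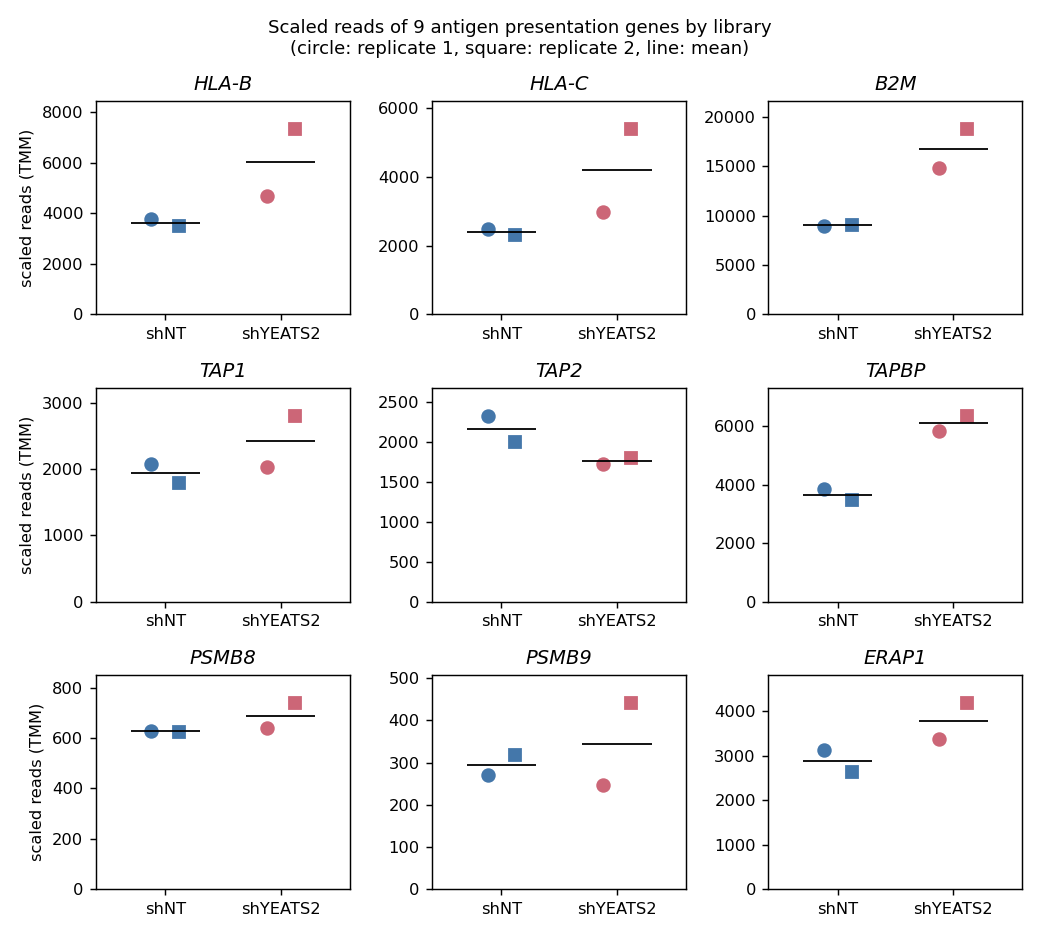
Scaled reads of each member (vertical axes from 0, each with its own scale) in the 2 shNT and 2 shYEATS2 libraries, with circles for replicate 1, squares for replicate 2 and lines for group means. B2M and TAPBP show a clear gap between the groups, TAP2 lies lower after knockdown, and in all 9 panels shYEATS2 replicate 2 lies above shYEATS2 replicate 1.

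B2M (ENSG00000166710, GRCh37 chr15:45003556-45011049, plus strand), the light chain that every classical class I molecule needs, had 8988 and 9089.7 scaled reads in shNT and 14763 and 18775 in shYEATS2. Both knockdown libraries lay far above controls that were almost equal to each other. Its log2 fold change was 0.89 ± 0.13 (SE), with an edgeR quasi-likelihood FDR of 0.00281, and it stayed between 0.71 and 1.06 with each library left out in turn. B2M was the member with the largest fold change and also the most abundant, and it was called higher under all the alternatives tried.

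HLA-B (ENSG00000234745, GRCh37 chr6:31321649-31334844, minus strand), a classical heavy chain, had 3759 and 3487 scaled reads in shNT and 4696 and 7351 in shYEATS2. The groups did not overlap, but the knockdown libraries differed from each other by more than the lower of them differed from the controls. The log2 fold change of 0.73 ± 0.20 did not pass (edgeR quasi-likelihood FDR = 0.0224), and leaving out shYEATS2 replicate 2 gave 0.38 where leaving out shYEATS2 replicate 1 gave 1.02. HLA-C (ENSG00000204525, GRCh37 chr6:31236526-31239907, minus strand), the neighbouring heavy chain gene, had 2480 and 2319 scaled reads in shNT and 2997 and 5413 in shYEATS2. It showed the same picture, with no overlap and a wide gap inside the knockdown group. Its log2 fold change was 0.81 ± 0.25 (edgeR quasi-likelihood FDR = 0.0348), and 0.32 and 1.17 without shYEATS2 replicate 2 and replicate 1.

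Without shYEATS2 replicate 1, the log2 fold changes of 1.02 for HLA-B and 1.17 for HLA-C rested on shYEATS2 replicate 2 alone. That library had more scaled reads than replicate 1 in all 9 members. HLA-B and HLA-C kept nearly the same proportion to each other, with 1.516 and 1.503 HLA-B reads for each HLA-C read in shNT and 1.567 and 1.358 in shYEATS2. In GENCODE, 30.7% of the HLA-B exon bases, taken over all annotated transcripts, are shared with a pseudogene on the same strand, DHFRP2. It was not in the table, and whether the shared bases lie in the canonical HLA-B transcript was not tested.

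Of the 7 genes listed as MHC class I chains, 6 were in the table (HLA-G was not). Of these 6, 2 were called higher, beside 12.9% of all genes, and all 6 had both knockdown libraries above both controls. Over the whole table, 5037 genes, or 39.7%, had both knockdown libraries above both controls and 39.8% had both below. The median log2 fold change of the 6 was 0.85. DESeq2 and exactTest each called 5 of the 6 higher, beside 17.0% and 20.5% of all genes. Limma-trend called 2 higher, and none of these tools called any lower. HLA-E, a nonclassical chain that presents leader peptides of other class I chains to NK cell receptors, had 3740.1 and 3526 scaled reads in shNT and 6818 and 7748 in shYEATS2. It rose by 1.00 ± 0.10 on the log2 scale (edgeR quasi-likelihood FDR = 0.00125). HLA-F had few reads, with 29.1 and 36.9 scaled reads in shNT and 47.2 and 101 in shYEATS2.

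TAPBP (ENSG00000231925, GRCh37 chr6:33267471-33282061, minus strand), tapasin, had 3858 and 3467 scaled reads in shNT and 5844 and 6361 in shYEATS2. The knockdown libraries were close to each other and far above both controls, so TAPBP had the smallest SE of the members. TAPBP rose by 0.74 ± 0.10 on the log2 scale (edgeR quasi-likelihood FDR = 0.00249). It lay between 0.66 and 0.81 with each library left out, and without shNT replicate 2 it no longer passed (edgeR quasi-likelihood FDR = 0.0138), which left B2M as the only member called. In GENCODE, an antisense lncRNA that was not in the table shares 21% of the TAPBP exon bases, taken over all annotated transcripts. The library kit does not mark strand, so reads from the shared bases cannot be told apart by strand. How this bears on the TAPBP counts was not tested.

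TAP1 (ENSG00000168394, GRCh37 chr6:32812986-32821593, minus strand), one side of the peptide transporter, had 2085 and 1788 scaled reads in shNT and 2037 and 2804 in shYEATS2. Its groups overlapped, since shYEATS2 replicate 1 lay between the controls. The log2 fold change was 0.32 ± 0.16 (edgeR quasi-likelihood FDR = 0.145), and 0.07 to 0.53 with each library left out. TAP2 (ENSG00000204267, GRCh37 chr6:32789610-32806516, minus strand), the other side of the transporter, had 2321 and 1999 scaled reads in shNT and 1719.5 and 1801 in shYEATS2. It was the only member with both knockdown libraries below both controls. The log2 fold change of -0.30 ± 0.11 did not pass (edgeR quasi-likelihood FDR = 0.0594), and it stayed between -0.40 and -0.19 with each library left out.

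TAP1 and TAP2 work as a heterodimer, and the proportion of their reads differed between the groups. Each TAP2 read was matched by 0.898 and 0.894 TAP1 reads in shNT and by 1.18 and 1.56 in shYEATS2. The ratio was above both controls in both knockdown libraries, 0.60 higher on the log2 scale. With 2 libraries against 2, a two-sided exact permutation test cannot give a p below 0.333, and this ratio reached that value (0.467 after adjustment over the 7 ratios tested). The ratios other than those of the proteasome subunits were chosen after the values had been seen. The 2 control ratios were almost equal, while the knockdown ratios differed from each other.

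Of the 12 genes of the peptide loading complex and its chaperones, 2 were higher (TAPBP and PDIA3) and none lower. Over all genes, 12.9% were called higher and 12.5% lower. The median log2 fold change of the 12 was 0.25. At an unadjusted p under 0.05, 3 were higher and 1 lower, beside 28.7% and 27.8% of all genes. DESeq2 and exactTest also called 2 higher, beside 17.0% and 20.5% of all genes. Limma-trend called 2 higher too, and none of these tools called any lower. PDIA3, the disulfide isomerase ERp57 that is bonded to tapasin in the loading complex, had 15214 and 13808 scaled reads in shNT and 19983 and 21736 in shYEATS2. Its rise of 0.52 on the log2 scale passed (edgeR quasi-likelihood FDR = 0.00711). The tapasin-related gene TAPBPL had a log2 fold change of 0.55 with an edgeR quasi-likelihood FDR of 0.145. The general chaperones of the endoplasmic reticulum did not pass, with log2 fold changes of 0.32 for HSPA5, -0.28 for CALR, 0.27 for GANAB and 0.14 for CANX.

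**Figure D3:**
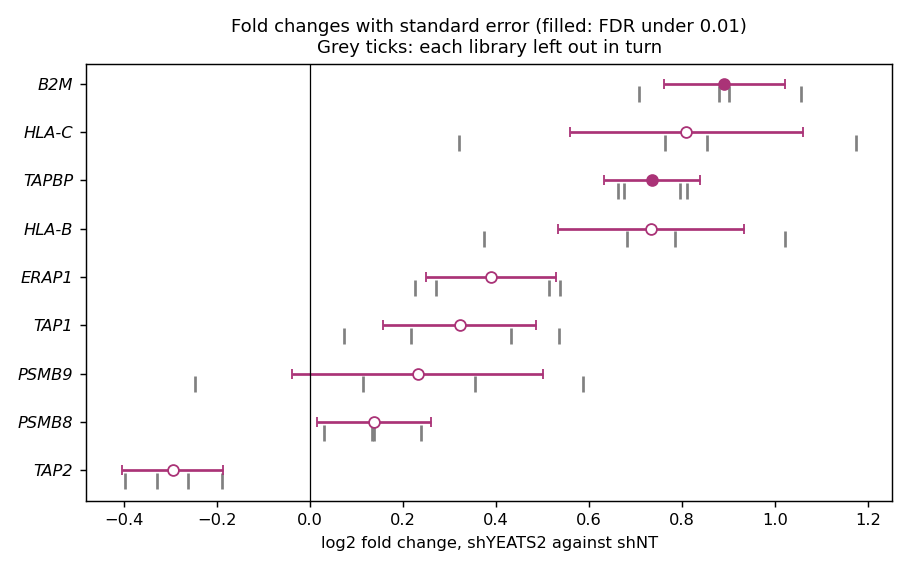
Log2 fold change of each member, shYEATS2 against shNT, with its standard error (bars), filled circles for genes with an FDR under 0.01 and grey ticks for the value with each library left out. B2M and TAPBP are filled, TAP2 is the only circle left of 0, and the ticks spread widest for HLA-C and PSMB9.

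The immunoproteasome members showed no called change. PSMB8 (ENSG00000204264, GRCh37 chr6:32808494-32812456, minus strand), the β5i subunit, had 628 and 624 scaled reads in shNT and 639 and 738 in shYEATS2. The groups did not overlap, but shYEATS2 replicate 1 was close to the controls. This gave a log2 fold change of 0.14 ± 0.12 (edgeR quasi-likelihood FDR = 0.380), with values of 0.03 if shYEATS2 replicate 2 was left out and 0.24 if shYEATS2 replicate 1 was. PSMB9 (ENSG00000240065, GRCh37 chr6:32811913-32827628, plus strand), the β1i subunit, had 270.1 and 318 scaled reads in shNT and 248 and 441 in shYEATS2. Here the knockdown libraries lay on either side of the controls. The log2 fold change was 0.23 ± 0.27 (edgeR quasi-likelihood FDR = 0.501), and it turned to -0.25 without shYEATS2 replicate 2, so these data give PSMB9 no direction.

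PSMB10, the β2i subunit, had 154 and 166 scaled reads in shNT and 189 and 196 in shYEATS2, a log2 fold change of 0.27 (edgeR quasi-likelihood FDR = 0.231). The constitutive subunits these replace had log2 fold changes of -0.10 for PSMB5, 0.07 for PSMB6 and 0.09 for PSMB7, none of them called by any of the 4 tools or at an unadjusted p under 0.05. Reads were then compared between each immunoproteasome subunit and its counterpart within a library. For each PSMB5 read there were 0.106 and 0.108 PSMB8 reads in shNT and 0.126 and 0.126 in shYEATS2. This ratio was above the controls in both knockdown libraries by 0.23 on the log2 scale, and 0.22 to 0.25 with each library left out, with an exact permutation p of 0.333.

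For each PSMB6 read there were 0.0359 and 0.0407 PSMB9 reads in shNT and 0.0347 and 0.0491 in shYEATS2, which overlapped (exact permutation p = 1), with a log2 difference of -0.14 without shYEATS2 replicate 2 and 0.36 without shYEATS2 replicate 1. The PSMB10 reads for each PSMB7 read were 0.0102 and 0.0122 in shNT and 0.0125 and 0.0126 in shYEATS2, a log2 difference of 0.18 (exact permutation p = 0.333) that was 0.05 without shNT replicate 1 and 0.30 without shNT replicate 2. All 3 ratios were far below 1 in every library, with the constitutive subunits holding most of the reads. Reads were not divided by transcript length in these ratios, so they compare libraries and not subunits. PSMB8 and PSMB9 share 139 exon bases on opposite strands, and PSMB10 shares 39.4% of its exon bases with another gene on the same strand. How this bears on the assigned reads was not tested.

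Of the 7 genes listed as immunoproteasome subunits and activators, none passed in edgeR's quasi-likelihood test or limma-trend. The quasi-likelihood test called 12.9% of all genes higher and 12.5% lower. DESeq2 called 1 of the 7 higher and exactTest 2, beside 17.0% and 20.5% of all genes. At an unadjusted p under 0.05, 2 were higher and 2 lower, beside 28.7% and 27.8% of all genes. The genes under that p were named after their values had been seen. The proteasome activator genes PSME1 and PSME2, whose products form the PA28 cap, had log2 fold changes of 0.56 and 0.39. The assembly factor POMP and the nuclear activator PSME3 had -0.34 and -0.31.

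**Figure D4:**
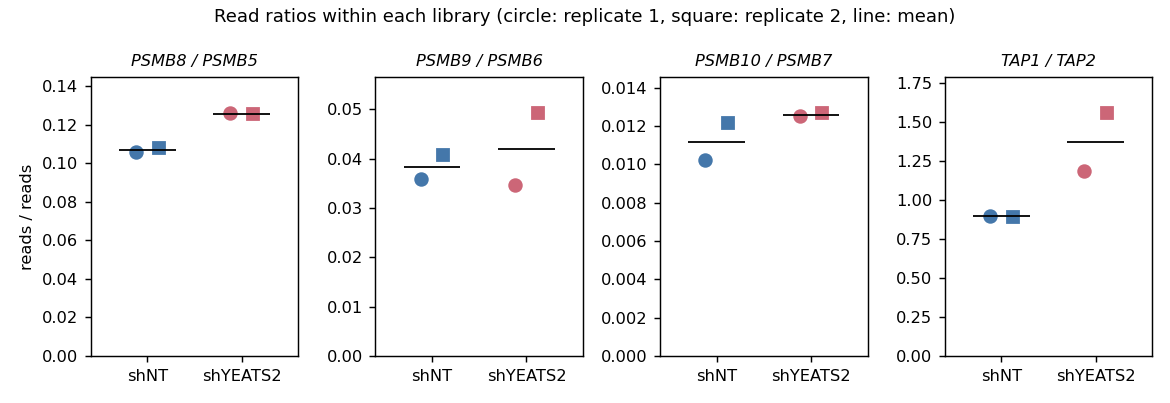
Reads of PSMB8, PSMB9, PSMB10 and TAP1 divided by those of PSMB5, PSMB6, PSMB7 and TAP2 in the same library (vertical axes from 0), with circles for replicate 1, squares for replicate 2 and lines for group means. The TAP1 to TAP2 ratio is 0.898 and 0.894 in shNT and 1.18 and 1.56 in shYEATS2, and the PSMB9 to PSMB6 ratios of the groups overlap.

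ERAP1 (ENSG00000164307, GRCh37 chr5:96096514-96143803, minus strand), the aminopeptidase that trims peptides in the endoplasmic reticulum, had 3133 and 2637 scaled reads in shNT and 3371 and 4187 in shYEATS2. Both knockdown libraries lay above both controls, with shYEATS2 replicate 1 close to the higher control. For ERAP1 the log2 fold change was 0.39 ± 0.14 (edgeR quasi-likelihood FDR = 0.0572), and 0.23 to 0.54 with each library left out. Its paralog ERAP2 was much scarcer, with 96.8 and 124 scaled reads in shNT and 308 and 501 in shYEATS2. ERAP2 rose by 1.88 on the log2 scale (edgeR quasi-likelihood FDR = 0.00279). There were 0.0309 and 0.0469 ERAP2 reads for each ERAP1 read in shNT and 0.0912 and 0.120 in shYEATS2, again at the smallest p of 0.333 in the exact permutation test.

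The other peptidases moved in both directions. Of the 10 trimming genes, 2 were higher (ERAP2 and NPEPPS) and 2 lower (THOP1 and LAP3), beside 12.9% and 12.5% of all genes. The median log2 fold change of the 10 was 0.24. NPEPPS, a cytosolic aminopeptidase, rose by 1.24 on the log2 scale (edgeR quasi-likelihood FDR = 0.00114). THOP1, an endopeptidase known to destroy class I peptides in the cytosol, fell by 0.92 on the log2 scale (edgeR quasi-likelihood FDR = 0.00289). LAP3, leucine aminopeptidase, fell by 0.58 on the log2 scale (edgeR quasi-likelihood FDR = 0.00782). The uncalled members had log2 fold changes of -0.40 for TPP2, 0.35 for IDE, 0.34 for LNPEP, 0.14 for BLMH and -0.03 for NRD1.

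Regulators of class I genes gave no common direction. Of 24 listed genes in the table, 3 were higher (STAT2, JAK1 and IRF1) and 2 lower (STAT3 and NFYB), beside 12.9% and 12.5% of all genes. The median log2 fold change of the 24 was 0.10. DESeq2 called 4 higher and 4 lower, exactTest 4 and 5, and limma-trend 3 and 3. Of 12676 genes, DESeq2 called 2159 higher and 2190 lower, exactTest 2596 and 2497, and limma-trend 1648 and 1620. IRF1, which binds the ISRE and IRF elements of class I genes, had 670.3 and 529 scaled reads in shNT and 915 and 1008 in shYEATS2, a rise of 0.68 (log2, edgeR quasi-likelihood FDR = 0.00962). STAT2 and JAK1, of the interferon signalling chain, rose by 0.71 and 0.54 on the log2 scale. STAT3 and NFYB, a subunit of the factor that binds CCAAT, fell by 0.83 and 0.81 on the log2 scale. NLRC5, the class I transactivator, was low, with 86.1 and 81.4 scaled reads in shNT and 119 and 155 in shYEATS2, and did not pass (0.71 on the log2 scale, edgeR quasi-likelihood FDR = 0.0405). RFXAP and RFX5, subunits of the factor that binds class I promoters with NLRC5, had log2 fold changes of -0.72 and -0.46 and were not called. CREB1, IFNGR2 and IRF2 had -0.46, 0.43 and -0.38, also without a call. CIITA and IRF9 were not in the table.

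Among class I-like molecules, 4 of 9 were higher and none lower, beside 12.9% and 12.5% of all genes. DESeq2, exactTest and limma-trend gave the same counts, where DESeq2 and exactTest called 17.0% and 20.5% of all genes higher. At an unadjusted p under 0.05, 5 were higher and none lower, beside 28.7% and 27.8% of all genes. MICA, a stress-induced ligand of the NK receptor NKG2D, had 2915 and 2864 scaled reads in shNT and 7235 and 10114 in shYEATS2, a rise of 1.59 on the log2 scale (edgeR quasi-likelihood FDR = 0.00119). MR1, which presents vitamin metabolites to MAIT cells, went from 35.5 and 67.3 scaled reads to 316 and 409, a rise of 2.82 (log2, edgeR quasi-likelihood FDR = 0.00130). ULBP1 and MICB, also NKG2D ligands, rose by 0.89 and 0.48 on the log2 scale. The NKG2D ligands ULBP2 and ULBP3 were not called, with log2 fold changes of -0.32 and -0.38 and both knockdown libraries below both controls. Of 12 MHC class II genes only HLA-DMA was in the table, with 18.3 and 19.5 scaled reads in shNT and 44.2 and 99.9 in shYEATS2. It was not called by edgeR's quasi-likelihood test or limma-trend, while DESeq2 and exactTest called it higher. Leaving out the 3 constitutive proteasome subunits, none of which was called, these lists held 60 genes in the table other than the members, of which 11 (18.3%) were higher, beside 12.9% of all genes, and 4 lower.

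**Figure D5:**
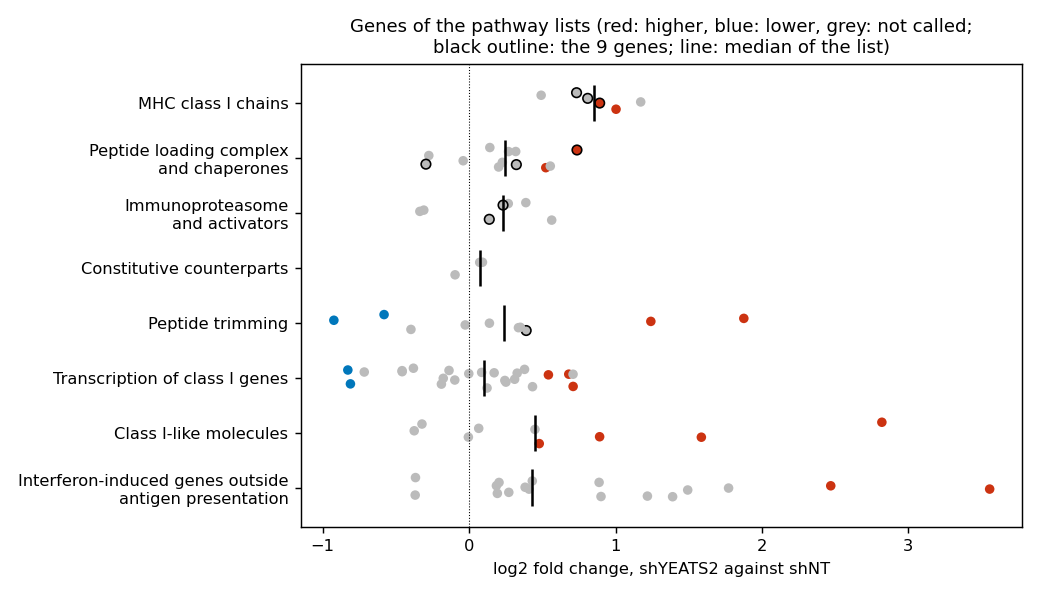
Log2 fold change, shYEATS2 against shNT, of the genes of 8 lists in the table, one row per list and without the MHC class II list, in red for called higher, blue for called lower and grey for not called, with black outlines for the 9 members and a black line at each list's median. The medians of these 8 lists run from 0.07 for the constitutive proteasome subunits to 0.85 for the MHC class I chains, and trimming and regulator genes lie on both sides of 0.

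The spread inside the knockdown group ran the same way in every member. Scaled reads were higher in shYEATS2 replicate 2 than in replicate 1 in 9 of 9 genes, by 0.07 to 0.85 on the log2 scale with a median of 0.35. Over all genes, 49.4% were higher in replicate 2, with a median of -0.0041. In shNT, replicate 2 was above replicate 1 in 2 of the 9. The summed scaled reads of the 9 genes were 27523 and 25729 in shNT and 36314 and 47872 in shYEATS2, so the sum was higher in both knockdown libraries and highest in replicate 2.

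Interferon-induced genes outside antigen presentation differed between the knockdown libraries in the same sense. Of 17 such genes in the table (26 listed), 16 had more scaled reads in shYEATS2 replicate 2 than in replicate 1, beside 49.4% of all genes. The median difference of the 17 was 0.47 on the log2 scale. Unlike the members, most of the 17 also had more scaled reads in shNT replicate 2 than in shNT replicate 1. The summed scaled reads of the 17 were 9508 and 11308 in shNT and 11881 and 16452 in shYEATS2. MX1, IFI27, IFI44L, IFITM1, GBP1, GBP2, XAF1, SOCS1 and CXCL10 were not in the table. Only GBP3 and IFI44 were called higher, beside 12.9% of all genes, and none lower, beside 12.5%. At an unadjusted p under 0.05, 9 were higher and none lower, beside 28.7% and 27.8% of all genes. DESeq2 called 5 higher and exactTest 7, beside 17.0% and 20.5% of all genes, and limma-trend 2. None of these tools called any lower. GBP3, an interferon-induced GTPase, had 128 and 97.6 scaled reads in shNT and 556 and 695 in shYEATS2. IFI44 had 6.46 and 11.9 scaled reads in shNT and 50.1 and 167 in shYEATS2. The part of an interferon response in the members' values was not tested.

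Of the 9 members, 7 lie within GRCh37 chr6:31236526-33282061, the stretch of the MHC region from HLA-C to TAPBP. Of the 54 other tested genes in this stretch, 13 (24.1%) were called higher and 6 lower, beside 12.9% and 12.5% of all genes. Their median log2 fold change was -0.08, below the 0.39 of the members. ERAP1 and B2M lie on other chromosomes. ERAP1 shares 3.76% of its exon bases with CAST on the opposite strand, the calpain inhibitor gene, which had 14918 and 15258 scaled reads in shNT and 19509 and 21938 in shYEATS2. CAST was not called (log2 fold change 0.46, edgeR quasi-likelihood FDR = 0.0106). PSMB8-AS1, which was not in the table, overlaps 14.2% of the TAP1 and 17.3% of the PSMB8 exon bases on the opposite strand, and a readthrough gene overlaps 19.5% of those of TAP2.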

How the data were processed

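mRNA-seq libraries of H1299 cells (2 shNT, 2 shYEATS2) were grouped by label, with 0 columns left unused. The authors prepared libraries with a TruSeq mRNA kit, mapped reads to hg19 and counted them with HTSeq at default parameters, and the deposited values are raw read counts for each gene. The methods name the RNA-Seq unified mapper, and the submitters' processing notes list TopHat2 2.0.10, Bowtie2 2.1.0 and HTSeq 0.6.1p1. The gene annotation is not given in the sources used here. Every gene in the table had at least 101 reads in some library. The columns with the authors' own fold changes and p-values were not used, and the 12 ChIP-seq samples were not analysed here.

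All 12676 genes were tested in edgeR 4.0.16 (R 4.3.3, quasi-likelihood test, TMM, Benjamini-Hochberg, FDR under 0.01) after a filter of at least 10 reads in at least 2 libraries, which every gene met. The study's threshold was used. Alternatives were DESeq2 1.42.0, exactTest, limma-trend (limma 3.58.1, prior count of 1 on log2 CPM), scaling by DESeq2 size factors, total counts or the upper quartile, dropping the filter or raising it to a mean of 100 reads, the replicate number as a block, an FDR limit of 0.05, and each library left out. The members and gene lists were chosen with earlier results of these data known. Genes named are the members, YEATS2, PSMB5, PSMB6, PSMB7, PSMB10, called genes of each list, up to 6 uncalled genes of 4 lists by size of change, and genes overlapping a member. Other names were chosen after their values were seen. Values of some listed genes are left out of the text. Read ratios were compared by two-sided exact permutation tests. Gene positions and exon overlaps come from the GENCODE GRCh37 annotation, and promoters from RefSeq (GRCh38.p14). Exon overlaps were taken over all annotated transcripts of a gene, and the annotation used for counting may differ. Scripts were tested on simulated data. The biological coefficient of variation was 0.107 and the median SE of a log2 fold change 0.123.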

Additional observations from a re-analysis of the deposited data

How the results depend on the processing

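B2M kept its call under all 14 alternatives, and TAPBP under all but the fit without shNT replicate 2. Of 126 results for single members, 114 kept direction and side of the threshold, 10 newly passed, 1 lost its call and 1 reversed, PSMB9 at -0.25 without shYEATS2 replicate 2 (range -0.25 to 0.59 over libraries left out). Members called higher numbered 4, in place of 2, with DESeq2, exactTest, the replicate block and an FDR under 0.05 (24.4% of all genes higher), and 1 to 4 with a library left out. Over the other pathway genes, called lower numbered 4 in the edgeR fit and 7 with DESeq2, 8 with exactTest, 9 with the block and 10 at 0.05. Called higher numbered 11, and 19 with the block, 22 at 0.05 and 5 (without shYEATS2 replicate 2) to 18 (without shYEATS2 replicate 1) with a library left out, and 6 and 7 without shNT replicate 1 and 2. Over all genes, higher and lower were 2596 and 2497 with exactTest, 2742 and 2715 with the block, 3093 and 3011 at 0.05, and 775 to 1971 and 850 to 2024 with a library left out, lowest without shNT replicate 1. Of all calls, 50.8% were higher, and 67% with total counts, where 2363 genes were higher and 1166 lower. Dropping the filter repeated the main fit, since every gene met it, and an FDR limit of 0.05 cannot remove a call. These alternatives therefore could not have changed the calls of B2M and TAPBP.

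Libraries with the same number share only that number, since no label ties them and there are 2 pairs. Their deviations correlated at 0.403 over 12676 genes, and with the replicate block HLA-B and HLA-C passed (edgeR quasi-likelihood FDR of 0.00585 and 0.00986). Each fit without a library left 1 library in a group, assumed to vary like the other group. The 2 libraries per group limit the precision most for PSMB9, HLA-C and HLA-B. No screen for results that need a closer look was run, since groups of 2 cannot be tested for a library that stands apart.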
